A study of Mus musculus with 6 samples.

Results

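The F-box and KLHL genes described here encode the substrate receptors of the CUL1 and CUL3 ubiquitin ligases, and were taken by name and by detection. They are the protein-coding mouse genes named Fbxl, Fbxo, Fbxw or Klhl with a number that had at least 10 counts in 3 or more of the 6 libraries. Of 113 such protein-coding symbols among 55357 identifiers in the count table, 74 met this rule. RNA was sequenced from LT-HSCs, the long-term blood stem cells that maintain blood formation for life, isolated from marrow of young animals by flow cytometry as Lin-, Sca-1+, c-Kit+, CD150+ and CD48- cells. The comparison was between 3 mice lacking Dcaf8 and 3 wild-type mice, with 50 cells of 1 mouse per library. The strain, the exact age, the way the Dcaf8 allele was made and the cells in which it was deleted are not stated in the labels. Each library is a bulk sample, so fewer cells of a type and less RNA per cell cannot be told apart.

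Cullin-RING ligases attach ubiquitin to proteins that a receptor subunit has recognised, and each cullin has its own family of receptors. In the SCF ligase, CUL1 carries the adaptor SKP1, and SKP1 holds an F-box protein, whose second domain binds the substrate: WD40 repeats in Fbxw, leucine-rich repeats in Fbxl and other domains in Fbxo proteins. In the CUL3 ligases a single KLHL protein is adaptor and receptor at once, binding CUL3 through a BTB domain and the substrate through kelch repeats. DCAF8 belongs to neither family, since it is a WD40 receptor of CUL4 through the adaptor DDB1, and the stated purpose of the study was to look into how its loss leads to defects of HSC function. In blood stem cells the family is best known for FBXW7, which removes MYC, cyclin E and NOTCH and is needed for stem cell quiescence.

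Dcaf8 itself was measured at 290.5, 293 and 204 CPM (counts scaled to the library total with TMM factors) in wild-type libraries 1 to 3 and at 74.3, 38.1 and 45.2 CPM in knockout libraries 1 to 3. The genotypes did not overlap, and 20.03% of the wild-type mean was left (262 ± 50.7 against 52.6 ± 19.2 CPM, SD, n = 3, two-sided exact permutation p = 0.1, the smallest that 3 against 3 allows). The adjusted p in edgeR was 0.739. Total counts ran from 14461864 to 22386387 per library. The summed level of 10 LT-HSC marker genes lay between 2046 and 2370 CPM in all 6 libraries. Wild-type replicate 2 stood apart with 6440 CPM of 10 neutrophil genes, led by Ngp, against 124 to 291 CPM in the other libraries, where Prtn3 made up most of the sum, and Mmp8 was at 0 in all. Its 7 macrophage and monocyte genes were also highest, at 958 CPM against 413 to 585 CPM, with Adgre1 at 0. The B cell, T and NK cell, erythroid and stromal sums stayed at or below 173 CPM, with Ms4a1, Ebf1, Cd3e, Cd3g, Trbc1, Car1, Cdh5, Cxcl12 and Lepr at 0. The 5 megakaryocyte genes summed to 609 to 1123 CPM in ranges that overlapped between genotypes. Cd48, which the gate selects against, stood at 7.32, 11.9 and 0.0507 CPM in wild-type and 9.60, 34.7 and 16.6 CPM in knockout libraries. Knockout replicate 3 came from a female, with 1124 counts of Xist and none of Ddx3y, while the other libraries had 815 to 3069 counts of Ddx3y. Wild-type replicate 3 had the fewest genes with a count, and its Spearman correlations with the other libraries over genes ran from 0.869 to 0.887, against 0.901 to 0.934 among the other libraries.

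The mRNA of most receptors of both families was present in LT-HSCs, and the share detected differed between the families. By family, 14 of 18 Fbxl genes (77.8%), 28 of 36 Fbxo genes (77.8%), 23 of 36 Klhl genes (63.9%) and 9 of 23 Fbxw genes (39.1%) met the detection rule, beside 11592 of 21876 (53.0%) of all protein-coding genes. The 14 Fbxw genes under the rule were the numbered mouse copies Fbxw13 to Fbxw16, Fbxw18 to Fbxw22 and Fbxw24 to Fbxw28, and all had 0 counts in all 6 libraries. These close copies are uncertain, because reads shared between copies may not have been counted. Of the 39 genes under the rule, 28 had no count at all. In a single library this allows a level of up to 0.134 to 0.207 CPM (3 counts without TMM factors, counting error only). Of the 74 detected genes, 57 had at least 10 counts in all 6 libraries and 3 in exactly 3 libraries. The gene just inside the rule was Klhl35, with 33, 62 and 6 counts in wild-type and 0, 0 and 37 in knockout libraries. Just outside it were Fbxo47, with 7, 8 and 0 against 147, 5 and 0 counts, and Fbxo2, with 48, 0 and 0 against 38, 3 and 0. A single gene, Klhl11, met the rule through knockout libraries alone, and 0 genes met it through wild-type libraries alone. All 74 passed the filter on low counts that preceded the test.

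Mean levels over the 6 libraries ran from 1.14 to 311 CPM with a median of 30.1 CPM, beside a median of 27.996 CPM over all 14592 genes tested and 41.9 CPM over the protein-coding ones. Levels of different genes are compared here per kilobase of annotated exon, because longer transcripts collect more reads. On that scale the median was 5.91 CPM per kb, beside 7.27 CPM per kb over all genes tested. Klhl6, a receptor known from B cells and the germinal centre, was the most abundant at 119 CPM per kb. Fbxo9, which targets the TEL2 and TTI1 scaffold proteins of the mTOR pathway, followed at 89.6 CPM per kb. The ranges of these genes over the 6 libraries did not meet, at 99.5 to 148 and 82.5 to 99.0 CPM per kb. After a gap came Fbxw5 at 39.0, Fbxo3 at 37.4, Fbxl6 at 36.3, Fbxo22 at 35.0, Fbxo6 at 34.3 and Fbxw11 at 26.6 CPM per kb, whose ranges over the libraries overlapped from each to the next. Fbxo22 is a receptor for the histone demethylase KDM4A and for BACH1, Fbxo6 recognises glycoproteins, and Fbxw11 is beta-TrCP2, a receptor for phosphorylated beta-catenin and IkB. Fbxw7 ranked 64 of 74 at 1.34 CPM per kb, and the lowest was Fbxl19, a CpG-binding F-box protein, at 0.388 CPM per kb.

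**Figure D1:**
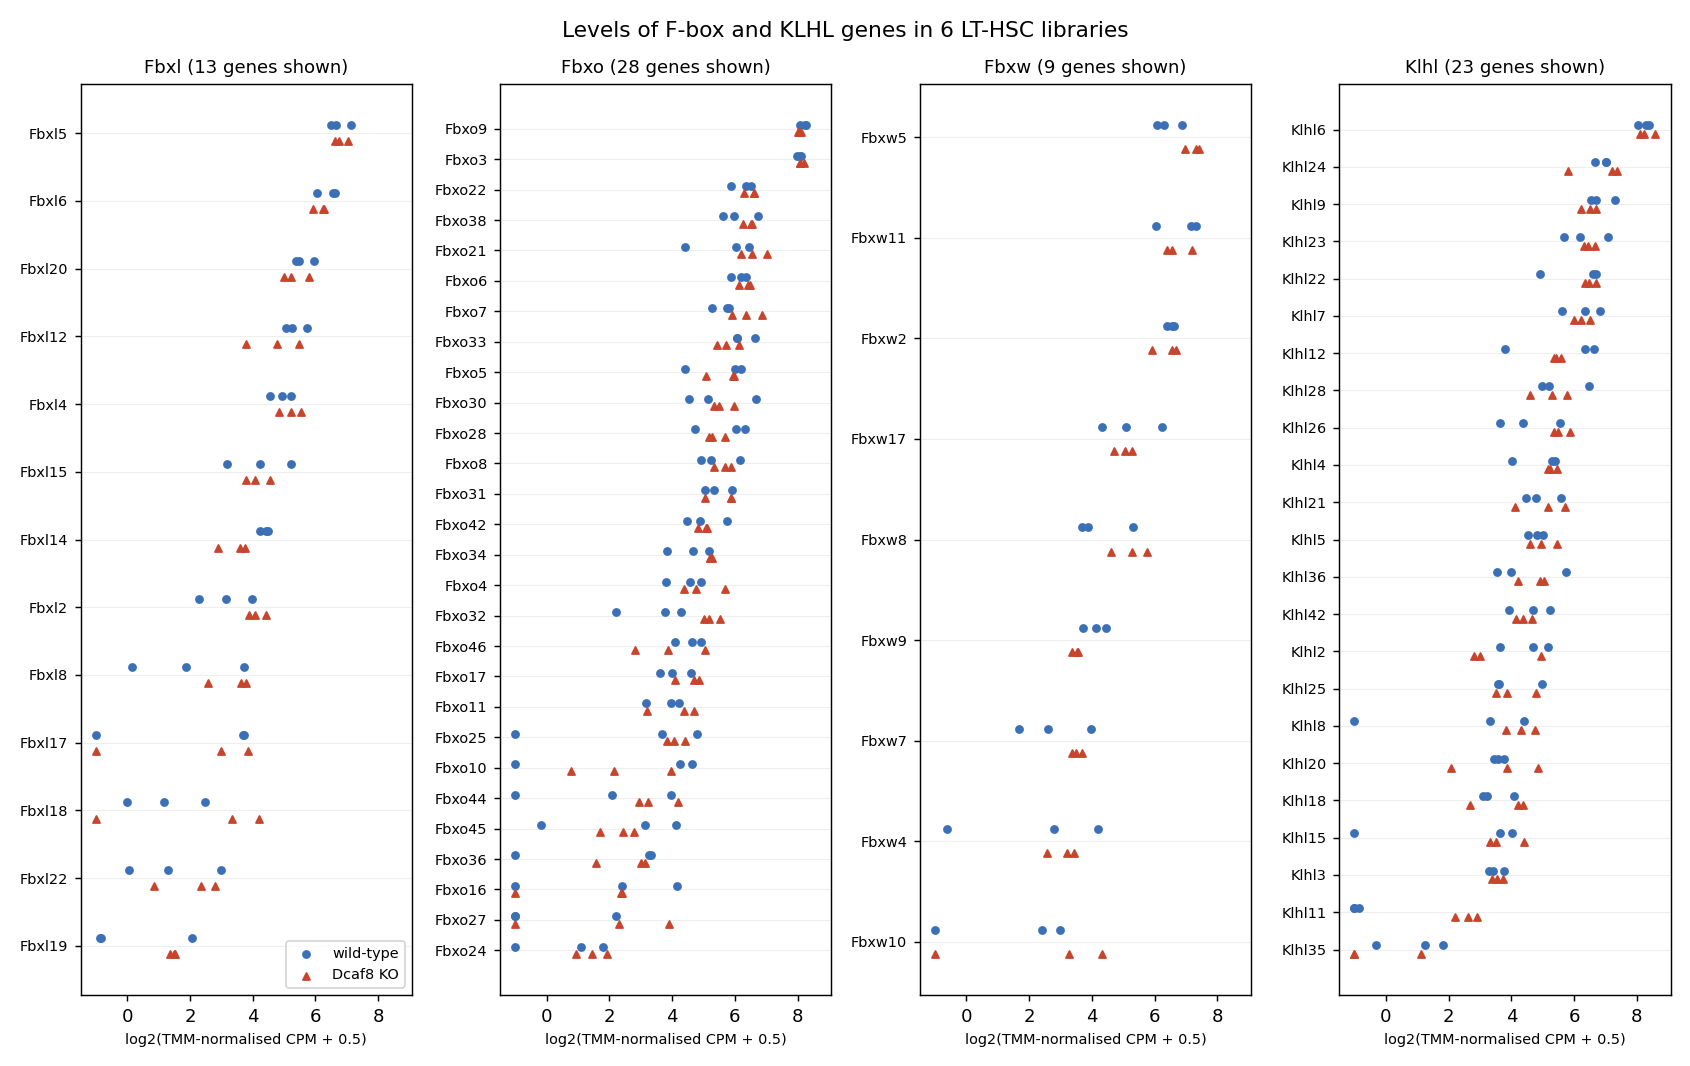
Levels of 73 of the 74 genes on a log2 scale (TMM-normalised CPM plus 0.5, not divided by length), by family, with 1 point per library, circles for wild-type and triangles for Dcaf8 KO. Fbxo9, Fbxo3 and Klhl6 lie together at the upper end, and points at the left edge are libraries at 0 CPM.

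RefSeq promoter windows (GRCm38.p6, another build than that of the counts) of 250 bases before to 50 bases after a gene's start were available for 58 of the 74 genes, as 81 windows. Their median GC content was 60.0%, beside 60.3% for the windows of all tested genes and 52.7% for all windows in the table. The median ratio of observed to expected CpG was 0.728, beside 0.745 and 0.384. Of 9 motifs searched on both strands, the GC box (GGGCGG) was found in 65.4% of the windows of these genes, 60.9% of those of tested genes and 35.7% of all windows. The ETS motif (CCGGAAG) was found in 23.5%, 17.7% and 8.86%, in the same order. The CCAAT box (CCAAT) stood in 29.6%, 37.9% and 37.4%, and the TATA box (TATAAA) in 4.94%, 7.08% and 13.6%. The windows of these genes were thus close to those of other genes tested in these cells. The other motifs were the E-box (CACGTG) in 11.1%, the YY1 motif (AAGATGGC) in 6.17%, the CRE (TGACGTCA) and the NRF1 motif in 2.47% each, and the forkhead motif (GTAAACA) in none, beside 10%, 4.44%, 2.98%, 2.005% and 2.64% of the windows of tested genes and 7.15%, 2.75%, 1.79%, 0.971% and 3.65% of all windows. The letters searched for the E-box, NRF1 and the CRE read the same on both strands, and a match is a match of letters alone. Fbxo32 was among the genes without a window, so its promoter was not searched. The sequences below are those of Klhl11, which met the detection limit in 1 genotype only, of Fbxw5, the most abundant per length of the genes with an unadjusted p under 0.05, and of Klhl6, the most abundant of all, with each CpG in capitals.
Klhl11: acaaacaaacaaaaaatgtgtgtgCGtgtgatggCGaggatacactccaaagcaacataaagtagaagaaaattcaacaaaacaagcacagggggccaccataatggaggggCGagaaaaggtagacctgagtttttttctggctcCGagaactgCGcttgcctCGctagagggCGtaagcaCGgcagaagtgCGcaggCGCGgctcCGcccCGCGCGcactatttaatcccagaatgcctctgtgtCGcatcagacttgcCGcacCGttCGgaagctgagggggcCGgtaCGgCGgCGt
Fbxw5: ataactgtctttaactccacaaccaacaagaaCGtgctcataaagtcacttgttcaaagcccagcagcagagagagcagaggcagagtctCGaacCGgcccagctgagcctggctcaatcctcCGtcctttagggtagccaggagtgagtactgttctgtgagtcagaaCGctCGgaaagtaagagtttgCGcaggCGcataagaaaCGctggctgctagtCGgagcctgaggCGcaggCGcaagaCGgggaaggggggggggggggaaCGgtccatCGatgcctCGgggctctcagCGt
Klhl6: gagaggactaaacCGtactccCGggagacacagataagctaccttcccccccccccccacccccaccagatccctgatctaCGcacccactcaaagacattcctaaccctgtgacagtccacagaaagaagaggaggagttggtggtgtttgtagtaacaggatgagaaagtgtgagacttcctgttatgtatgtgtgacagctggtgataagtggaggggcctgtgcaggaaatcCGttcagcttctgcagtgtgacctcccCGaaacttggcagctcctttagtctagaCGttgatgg

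The Klhl11 window (chr11:100472733-100473032, minus strand) held 23 CpG at an observed to expected ratio of 1.03, with a GC box at bases 207 to 212 on the opposite strand. The Fbxw5 window (chr2:25500500-25500799, plus strand) held 17 CpG at a ratio of 0.701. The Klhl6 window (chr16:19983000-19983299, minus strand) held 6 CpG at a ratio of 0.289, so the most abundant of these genes had the fewest CpG of the 3. All windows run in the direction of transcription as the RefSeq table gives it.

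The question of the genotype comparison was whether loss of a CUL4 receptor went with other mRNA levels of the receptors of CUL1 and CUL3. In edgeR 0 of the 74 genes passed an adjusted p of 0.05, as did 0 of all 14592 genes tested (0.0%). DESeq2 called 1 gene beside 68 of all genes (0.466%), and limma-voom called none. That gene was Klhl11, which had to differ because it met the detection rule through knockout libraries alone, so its call, and its place in the counts that follow, supports nothing about the family. At an unadjusted p under 0.05, edgeR gave 4 genes (5.41%), beside 5.82% of all genes tested. DESeq2 gave 5, beside 5.22%, the same genes and Fbxl14, which was lower in the knockout (DESeq2 p of 0.0453). All 4 in edgeR were higher in the knockout, Klhl11, Fbxo32, Fbxw5 and Fbxo7, and none was lower. Of all genes tested in edgeR, 3.47% were higher and 2.35% lower at that p. Without wild-type replicate 2 there were 4 genes (5.41%), beside 6.004% of all genes tested. Without knockout replicate 3 there were 6 (8.11%), beside 5.18%. The other libraries, left out in turn, gave from 2 (2.70%, knockout replicate 1), beside 4.99%, to 7 (9.46%, wild-type replicate 3), beside 5.83%. The values of the knockout and wild-type libraries did not overlap for 7 genes (9.46%), beside 10.3% of all genes. Of these, 5 were higher in every knockout library, Klhl11, Fbxo32, Fbxw5, Fbxo7 and Fbxo34, and 2 were lower, Fbxl14 and Fbxw9, where all genes gave 5.91% and 4.43%. These shares lie near those of all genes.

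The median log2 fold change (knockout over wild-type) of the 74 genes was 0.09, with quartiles of -0.21 and 0.54, beside a median of 0.01 over all genes tested. It was above 0 for 45 genes (60.8%), beside 50.9% of all genes. Without wild-type replicate 2 it was above 0 for 40 genes (54.1%), beside 52.4% of all genes, and without knockout replicate 3 for 47 (63.5%), beside 50.6%. By family the median was 0.15 for Fbxl, 0.18 for Fbxo, 0.02 for Fbxw and 0.05 for Klhl genes. A log2 fold change of 1 or more in either direction was found for 7 genes (9.46%), beside 14.3% of all genes. Scaled to the library total without TMM factors, the summed level of the F-box genes was 2294, 2207 and 2288 CPM in wild-type libraries. In knockout libraries it was 2642, 2408 and 2314 CPM, above the wild-type sums, the closest by little. The TMM factors were 0.989 for wild-type replicate 3 and 1.0003 for knockout replicate 3, so the gap between their sums depends on the scaling. On the same scale the summed level of the Klhl genes was 1238, 1029 and 1207 against 1210, 1319 and 1033, in overlapping ranges.

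**Figure D2:**
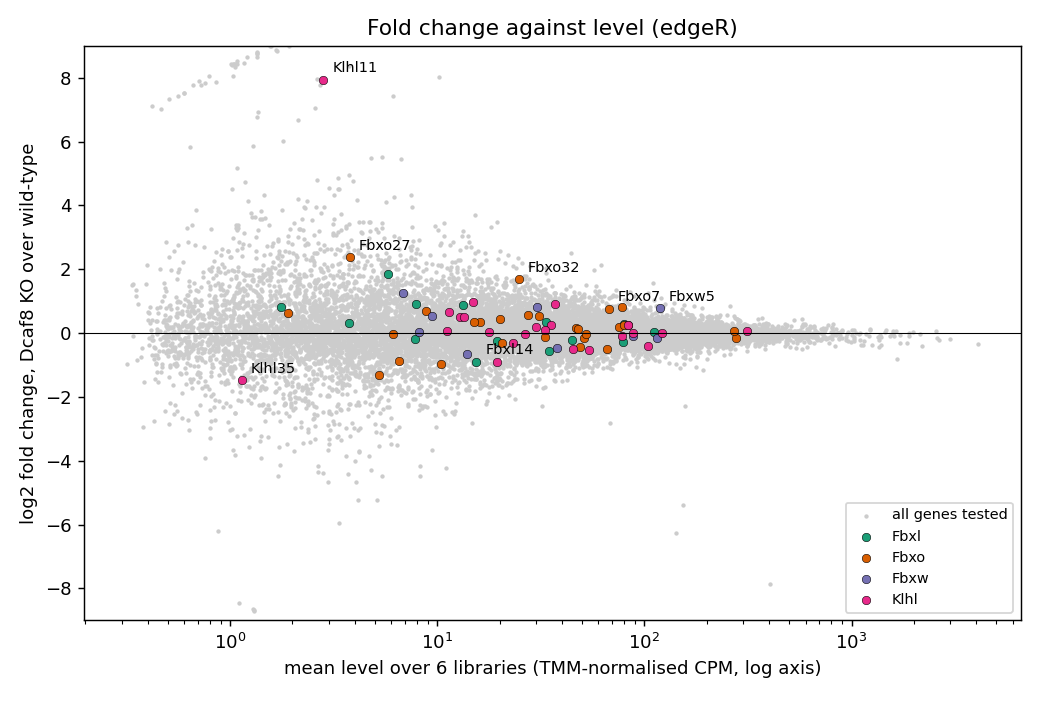
Log2 fold change (knockout over wild-type) against mean level over the 6 libraries (CPM, log axis) for all genes tested in grey and the F-box and KLHL genes in colour by family. Most of the coloured points lie within 1 of the zero line, Klhl11 lies at 7.94, a value that depends on the prior count, and 30 grey genes lie outside the plotted range.

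Klhl11, a BTB-kelch protein known as an autoantigen in a neurological disease linked to testicular tumours, showed the sharpest split of the family. Its counts were 0, 1 and 0 in wild-type libraries and 130, 59 and 156 in knockout libraries. All 3 knockout libraries thus held the mRNA at 5.70, 4.11 and 7.06 CPM, and the wild-type libraries held a single count among them. It met the detection rule through knockout libraries alone, so its values are given as a description, with no test. Among all genes tested, 14 (0.0959%) had at most 3 counts in every wild-type library and at least 50 in every knockout library, and 1 (0.00685%) had the reverse. Presence in one library and absence from another also occurred within a genotype, in 14 of the 74 genes, and its part in the Klhl11 values was not tested. Klhl11 and Fbxo34 are outside the rule by which genes are named here, and were chosen after their values were seen. The same holds for Fbxl19, Klhl8, Fbxo25 and Klhl15, which are named in other paragraphs.

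Among the F-box genes, Fbxo32, which encodes atrogin-1, the receptor of muscle atrophy and a FOXO target, was at 19.0, 4.07 and 13.2 CPM in wild-type and 45.2, 35.6 and 31.9 CPM in knockout libraries. The lowest knockout library lay well above the highest wild-type library. The log2 fold change was 1.68 ± 0.49 (SE), with an edgeR p of 0.00997 and an adjusted p of 0.739. The lowest value was that of wild-type replicate 2, and without this library the log2 fold change was 1.24, the lowest with any library left out, while leaving out wild-type replicate 3 gave 1.77 and leaving out knockout replicate 3 gave 1.80.

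Fbxw5, a WD40 F-box protein described in both SCF and CUL4-DDB1 ligases, was at 117, 78.6 and 66.4 CPM in wild-type and 158, 169 and 125 CPM in knockout libraries. The groups did not overlap, though wild-type replicate 1 came close to knockout replicate 3. The log2 fold change was 0.79 ± 0.25, with an edgeR p of 0.0160 and an adjusted p of 0.752. Fbxo7, an F-box protein that binds the proteasome regulator PI31 and is known for its part in red cell maturation and a form of parkinsonism, was at 37.7, 55.7 and 52.7 against 81.0, 116 and 60.0 CPM. Knockout replicate 3 lay just above the wild-type range and the other knockout libraries far above it. The log2 fold change was 0.77 ± 0.32, with an edgeR p of 0.0450 and an adjusted p of 0.848. Without wild-type replicate 2 the log2 fold change was 0.72 for Fbxw5 and 0.87 for Fbxo7, without wild-type replicate 3 it was 0.63 and 0.83, and without knockout replicate 3 it was 0.91 and 0.99. With each library left out in turn it lay between 0.63 and 1.04 for Fbxw5 and between 0.53 and 0.99 for Fbxo7. Fbxo34 was at 13.8, 35.9 and 24.96 against 36.5, 38.1 and 36.0 CPM, so knockout replicate 3 and wild-type replicate 2 differed by less than 1 CPM.

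On the lower side, Fbxl14, a receptor for SNAIL-family repressors, was at 18.4, 20.8 and 21.9 CPM in wild-type and 11.6, 6.96 and 13.2 CPM in knockout libraries. The 3 wild-type values lay close together and above all knockout values. The log2 fold change was -0.89 ± 0.42, with an edgeR p of 0.0690 and an adjusted p of 0.869. Leaving out wild-type replicate 2 gave -0.87, wild-type replicate 3 -0.84 and knockout replicate 3 -1.07, within a range of -1.07 to -0.72 over all libraries left out. Fbxw9 was at 21.3, 17.0 and 12.6 against 11.4, 11.1 and 9.95 CPM, with wild-type replicate 3 just above the knockout range and a log2 fold change of -0.64 ± 0.44. Fbxl14 overlaps Wnt5b, Fbxw9 overlaps A230103J11Rik, Fbxo7 overlaps A230060F14Rik, Fbxw5 overlaps C8g and Fbxo32 overlaps Gm15943 in the GRCm38 annotation. In all, 26 of the 74 genes overlap another counted gene over whole gene spans, introns included. No source used here gives the strand setting, and shared exon bases were not examined, so reads of such pairs may not be told apart.

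**Figure D3:**
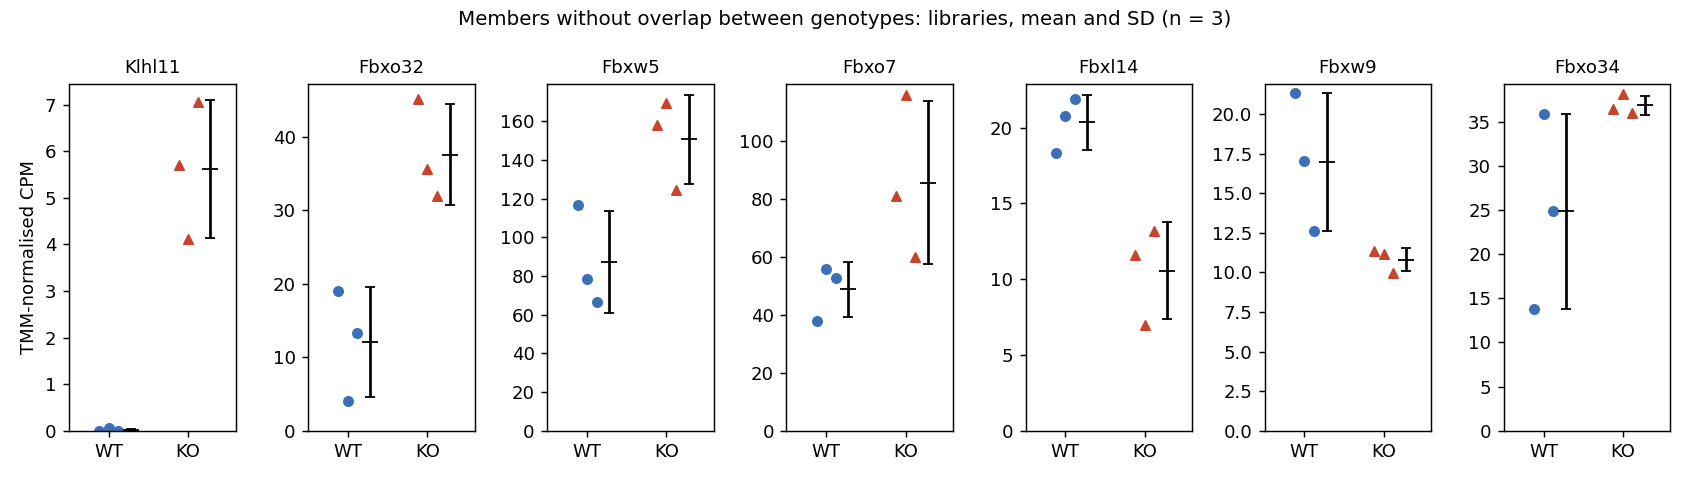
Levels (TMM-normalised CPM, linear axes from 0, each gene on its own scale) of the 7 genes whose wild-type and knockout libraries did not overlap, with 1 point per library and the mean and SD (n = 3). Klhl11 is near 0 in all wild-type libraries, 4 further genes are higher and 2 are lower in every knockout library.

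The remaining genes with the smallest p-values overlapped between genotypes. Klhl26 was at 46.1, 20.02 and 12.0 against 40.9, 44.6 and 58.1 CPM (log2 fold change 0.92). Fbxo21, an F-box protein that targets the transcriptional regulator EID1, was at 87.7, 65.0 and 20.8 against 131, 72.5 and 92.7 CPM (log2 fold change 0.81). In both, wild-type replicate 1 reached into the knockout range and wild-type replicate 3 was the lowest library. The log2 fold change of Klhl26 was 0.57 when wild-type replicate 3 was left out and 1.58 when wild-type replicate 1 was. For Fbxo21 the same libraries gave 0.40 and 1.22. Fbxl2 was at 8.39, 15.4 and 4.41 against 21.2, 14.3 and 16.2 CPM. Fbxw8, the F-box partner of CUL7, was at 14.3, 12.5 and 39.2 against 53.5, 38.7 and 24.1 CPM. Single libraries of each genotype crossed over in these genes. Fbxl18 was at 0.507, 5.09 and 1.78 against 17.8, 9.61 and 0 CPM, so that the knockout group held both its highest and its lowest value. Fbxo33 was at 67.2, 100.3 and 66.4 against 69.2, 42.4 and 51.7 CPM. Klhl2, a receptor for WNK kinases, was at 25.4, 11.9 and 35.6 against 6.49, 30.3 and 7.42 CPM. Fbxl12 was at 33.2, 37.5 and 52.6 against 43.8, 26.7 and 13.4 CPM. Each of these last 3 had at least 1 knockout library inside the wild-type range. Fbxl6 was at 98.4, 66.1 and 94.9 against 60.5, 74.6 and 77.7 CPM (log2 fold change -0.29).

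The receptors of cell cycle proteins did not pass the test in either direction. Fbxw7 was at 15.2, 2.71 and 5.53 CPM in wild-type and 10.8, 12.4 and 9.91 CPM in knockout libraries. The knockout values lay within a narrow band inside the wide wild-type range, whose lowest value was that of wild-type replicate 2. The log2 fold change was 0.53 ± 0.63 with an edgeR p of 0.426, and 0.10 to 1.41 with each library left out in turn. Fbxw11 was at 158, 65.7 and 142 against 94.7, 83.0 and 148 CPM. Fbxo5, which encodes EMI1, the inhibitor of the anaphase-promoting complex, was at 72.1, 63.8 and 20.6 against 33.4, 60.3 and 62.0 CPM. Wild-type replicate 2 was the lowest library for Fbxw11 and wild-type replicate 3 for Fbxo5, each within a wide spread. Fbxo31, a receptor linked to cyclin D1 and DNA damage, was at 59.6, 39.8 and 32.6 against 32.2, 58.7 and 57.9 CPM. Of the Klhl receptors that act on Aurora B in mitosis, Klhl9 was at 158, 104 and 93.5 against 74.4, 102 and 91.1 CPM and Klhl21 at 21.8, 27.2 and 47.3 against 51.8, 35.1 and 16.9 CPM. Klhl22, which targets PLK1 and DEPDC5, was at 97.5, 29.3 and 103 against 103, 88.6 and 80.3 CPM. All of these ranges overlapped, and apart from Fbxw7 the log2 fold changes lay between -0.42 for Klhl9 and 0.26 for Klhl22.

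Other receptors with a known role in blood or iron handling gave the following values. Fbxl5, the iron sensor that removes IRP2, was at 99.8, 141 and 90.7 CPM in wild-type and 107, 99.0 and 130.1 CPM in knockout libraries, with a log2 fold change of 0.03 ± 0.23. Fbxo11, the receptor of BCL6, was at 14.9, 8.48 and 18.2 against 8.77, 25.5 and 20.5 CPM. Klhl20, which acts on DAPK and PML, was at 11.5, 10.5 and 13.2 against 28.1, 3.69 and 14.02 CPM, so the wild-type values lay together and the knockout values on both sides of them. Klhl6 was at 311, 259.6 and 337 against 274, 386 and 301 CPM (log2 fold change 0.07 ± 0.17). Fbxo22 was at 91.0, 81.1 and 58.3 against 97.0, 97.0 and 78.4 CPM, and Fbxo6 at 58.6, 72.1 and 80.5 against 88.2, 85.1 and 69.8 CPM, both with overlapping groups.

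Some close relatives were present at different levels. Of the beta-TrCP pair, Btrc was at 84.6, 58.4 and 107 CPM in wild-type and 46.2, 64.9 and 57.2 CPM in knockout libraries (log2 fold change -0.59 ± 0.30, edgeR p of 0.0863), beside -0.14 ± 0.37 for Fbxw11. Per kilobase of exon, Btrc stood at 4.12 and Fbxw11 at 26.6 CPM per kb. Without division by length their libraries overlapped, at 46.2 to 107 CPM for Btrc and 65.7 to 158 CPM for Fbxw11. The gap per kilobase thus depends on the length used, which joins all annotated exons of a gene. Klhl13, the relative of Klhl9 on the X chromosome, had 224 and 234 counts in wild-type replicates 1 and 2 and none in the other 4 libraries, so it did not meet the detection rule, while Klhl9 was present in every library. Fbxl21 had 44 and 43 counts in knockout replicates 1 and 3 and none elsewhere. Klhl2 and Klhl3, both WNK receptors, stood at 2.11 and 1.52 CPM per kb with overlapping ranges over the libraries.

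The receptors differed widely in how evenly they were measured. Spread is given as the biological coefficient of variation (BCV), edgeR's estimate of the relative variation between animals of a genotype beyond counting error. The median BCV of the 74 genes was 49.4%, beside 51.0% for all genes tested and 42.1% for protein-coding ones. The most even were Fbxo3 at 14.8%, Fbxo9 at 15.1%, Klhl6 at 18.7% and Fbxl5 at 23.0%. Fbxo3 was at 252, 274 and 267 CPM in wild-type and 267, 271 and 291 CPM in knockout libraries. Fbxo9 was at 266, 307 and 299 against 256, 278 and 261 CPM. The values of these genes overlapped between genotypes, with log2 fold changes of 0.06 ± 0.12 for Fbxo3 and -0.14 ± 0.12 for Fbxo9. By mean level, the median BCV was 102% for the 24 genes from 5 to 20 CPM, beside 76.9% for all genes in that range. It was 46.8% for 21 genes from 20 to 50 CPM, beside 45.6%, 32.1% for 15 genes from 50 to 100 CPM, beside 29.955%, and 24.1% for 8 genes from 100 to 400 CPM, beside 21.2%.

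**Figure D4:**
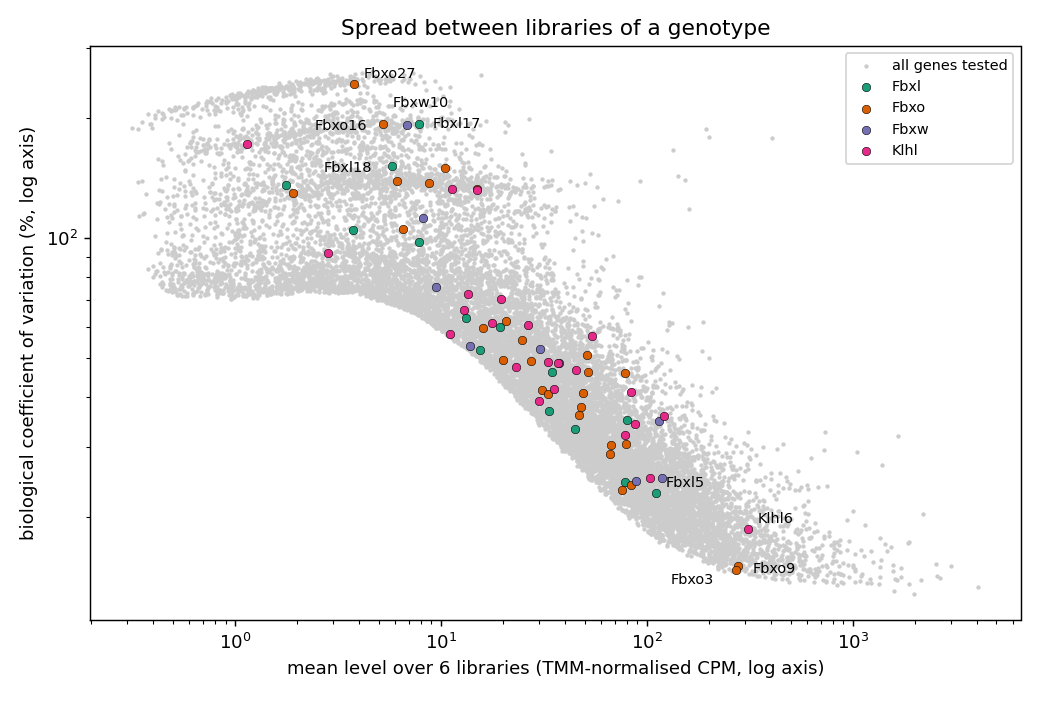
Biological coefficient of variation (%, log axis) against mean level over the 6 libraries (CPM, log axis), with all genes tested in grey and the F-box and KLHL genes in colour by family. Fbxo3 and Fbxo9 lie at about 15% on the lower edge, and Fbxw10, Fbxl17 and Fbxo16 lie at 193%.

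Many receptors of low level were either present or missing in a library of 50 cells. With at most 3 counts in one library and at least 50 in another of the same genotype, 13 of the 74 genes (17.6%) were all-or-none among wild-type libraries and 5 (6.76%) among knockout libraries, beside 11.6% and 5.68% of all protein-coding genes that met the detection rule. These counts rest on single libraries. Leaving out wild-type replicate 2 left 6 genes (8.11%, beside 7.63%) in the wild-type group, leaving out wild-type replicate 3 left 7 (9.46%, beside 4.99%) and leaving out wild-type replicate 1 left 12 (16.2%, beside 7.82%). Without knockout replicate 3 no gene of the 74 was all-or-none among knockout libraries, beside 2.42% of all, and the number stayed 5 without either of the others. Counting either genotype this was 14 genes (18.9%), beside 13.7%. A library with 0 counts was likewise found for 14 genes (18.9%), beside 15.5% of all genes tested. Fbxl17, which removes faulty dimers of BTB proteins, had 228, 0 and 246 counts in wild-type and 320, 107 and 0 in knockout libraries. Fbxw10 had 86, 0 and 148 against 446, 133 and 0 counts, and Fbxo16 had 84, 0 and 342 against 107, 69 and 0. These genes were missing from wild-type replicate 2 and knockout replicate 3 alike, and each had a BCV of 193%. Others were missing from a single wild-type library, as Klhl8 (370, 0 and 188 against 440, 380 and 303 counts) and Fbxo25 (219, 557 and 0 against 316, 234 and 458 counts). Klhl15, a gene on the X chromosome, had 278, 244 and 0 against 467, 136 and 239 counts, with the female library inside the range of the others. The number of the 113 symbols with at least 10 counts was 73, 66 and 66 among wild-type and 77, 75 and 71 among knockout libraries, while the number of all genes with a count was 16393, 16183 and 15244 against 17015, 16854 and 16508. The first numbers overlapped between genotypes and the second did not, and the part of gene detection in the values of low genes was not tested.

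The common parts of the SCF ligase gave no call. Of 14 core and regulator genes, 0 passed the adjusted threshold in edgeR and 0 had an unadjusted p under 0.05, beside 5.82% of all genes tested. The log2 fold changes were above 0 for 6 and below for 8, with a median of -0.02. Cul1 was at 268 ± 24.9 CPM in wild-type and 239 ± 28.9 CPM in knockout libraries (SD, n = 3), Skp1a at 384 ± 41.9 and 376 ± 36.1 CPM, and Rbx1 at 232 ± 15.6 and 232 ± 25.3 CPM. Uba3, a subunit of the NEDD8-activating enzyme, had the smallest p (0.139 in edgeR), with a log2 fold change of -0.50 ± 0.30. Of 5 tested F-box genes under other names, 0 had a p under 0.05. Skp2, the receptor of p27, was at 18.9, 22.2 and 19.3 against 40.1, 14.965 and 47.5 CPM, with knockout libraries on both sides of the wild-type values.

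Of 23 tested genes for CUL3 and BTB receptors under other names, 0 passed the adjusted threshold in edgeR. An unadjusted p under 0.05 was found for 2, both lower, beside 2.35% of all genes tested that were lower at that p. The log2 fold changes were above 0 for 8 and below for 15, with a median of -0.11. Keap1, the CUL3 receptor of NRF2, was at 132, 102 and 160 CPM in wild-type and 98.4, 88.4 and 87.9 CPM in knockout libraries. All knockout libraries lay below the wild-type ones, with a log2 fold change of -0.52 ± 0.22 (edgeR p of 0.0485, adjusted p of 0.857). The other was Zbtb16, a BTB zinc finger repressor, at 9.63, 6.25 and 0 against 0.658, 0.766 and 1.18 CPM (log2 fold change -2.55 ± 1.07, edgeR p of 0.0367), where wild-type replicate 3 had none. Spop, a CUL3 receptor outside the kelch family, was at 267, 222 and 273 against 316, 336 and 286 CPM, with every knockout library above the wild-type ones (log2 fold change 0.30 ± 0.14, edgeR p of 0.0666). Of the 23 genes, 1 was lower and 2 were higher without overlap between genotypes, beside 4.43% and 5.91% of all genes tested. Cul3 was at 27.5, 12.3 and 12.5 against 28.6, 47.5 and 14.9 CPM. Of the 7 genes for other cullins and their RING partner Rnf7, 0 had a p under 0.05, with a median log2 fold change of 0.17. Of these, 1 was lower and 0 were higher without overlap between genotypes, beside 4.43% and 5.91% of all genes tested. It was Rnf7, at 154, 154 and 185 against 141, 141 and 144 CPM (log2 fold change -0.21 ± 0.16, edgeR p of 0.215).

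Among 21 genes for known substrates of these ligases, 0 passed the adjusted threshold in edgeR. An unadjusted p under 0.05 was found for 2, both lower, beside 2.35% of all genes tested that were lower at that p. The log2 fold changes were above 0 for 13 and below for 8, with a median of 0.06. Myc, a target of FBXW7 and SKP2, was at 718, 648 and 743 CPM in wild-type and 527, 540 and 488 CPM in knockout libraries (log2 fold change -0.44 ± 0.10, edgeR p of 0.00304, adjusted p of 0.739). Nfe2l2, which encodes NRF2, the target of KEAP1, was at 246, 262 and 278 against 198, 167 and 166 CPM (log2 fold change -0.56 ± 0.14, edgeR p of 0.00468, adjusted p of 0.739). The genotypes did not overlap for either gene, and these were the only 2 of the 21, beside 4.43% of all genes tested that were lower without overlap. These are mRNA levels, and protein levels were not measured.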

How the data were processed

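Libraries of 50 sorted LT-HSCs per mouse went through full-length mRNA amplification, tagmentation and sequencing on a NovaSeq instrument, per the labels' protocols. The authors deposited raw read counts per Ensembl gene, 1 column per library, with no summary lines. Trimmomatic 0.39, HISAT2 2.2.1, Picard 2.26.1, HTSeq 1.99.2, DESeq2 1.38.3 and the build mm39 are named, without roles, per the submitters' processing notes. The annotation release and strand setting are not stated in the sources used. The labels name no molecular identifiers, so counts may not be independent molecules, and intervals and floors of 3 counts cover counting error only. Of 55357 identifiers, 52081 (94.1%) matched a symbol and held 99.9% of the counts. For 135 that shared a symbol, the one with the most counts kept it. Gene types, exon lengths and overlaps came from GENCODE on GRCm38.

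Groups came from the labels, and the design text gives 3 mice per genotype. Counts were tested in edgeR 4.0.16 (R 4.3.3) over all genes, with filterByExpr (minimum count 10, minimum total 15), TMM factors, robust dispersions and a robust quasi-likelihood fit (legacy off) with genotype as the only term. Adjustment was by Benjamini-Hochberg over all genes tested (threshold 0.05), and SEs were taken from the F statistic. DESeq2 1.42.0, limma 3.58.1 (voom with sample weights), RLE factors, the legacy fit, other filters, a replicate block and each library left out were alternatives; DESeq2 without a filter was chosen after seeing the data. The fits were tested on simulated counts with 200 genes changed. The genes and lists were chosen with earlier results of these data known.

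Genes named were the 8 per direction with the smallest p among those averaging 5 CPM or more, the 8 highest per kilobase, genes with textbook roles, the 4 with the lowest and the 4 with the highest BCV at that level, those at the detection limit and up to 4 per pathway list. One gene that met the rule is not reported here.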

Additional observations from a re-analysis of the deposited data

Results flagged for a closer look

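Of the F-box and KLHL symbols that did not meet the detection rule, 7 of 39 (17.9%) had more than 3 counts in a knockout library and fewer in every wild-type library, beside 10.4% of the 10284 protein-coding genes under the rule. Klhl14, known from B cells, had 175 counts in knockout replicate 1 and 0 in the other 5 libraries. Fbxo47 had 147 counts in knockout replicate 1 and at most 8 elsewhere. Klhl10, a receptor of the male germline, had 74 counts in knockout replicate 2 and 3 in wild-type replicate 1. Fbxo48 had 66 counts in knockout replicate 2 alone. Fbxl21 had 44 counts in knockout replicate 1 and 43 in knockout replicate 3. Klhl32 had 34 counts in knockout replicate 3 and 1 in knockout replicate 1. Fbxo40, known from muscle, had 7 counts in knockout replicate 3 alone. The reverse was found for 3 (7.69%), beside 7.63%. Klhl40 had 116 counts in wild-type replicate 2 alone, Klhl13 had 224 and 234 in wild-type replicates 1 and 2, and Fbxo2 had 48 in wild-type replicate 1, beside 38 in knockout replicate 1 and 3 in knockout replicate 2. No test was made on these counts.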

How the results depend on the processing

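With 3 animals per genotype and 50 cells per library, genes of a few CPM were measured with the widest spread. The number of genes called was 0 in every edgeR and limma-voom alternative, but DESeq2 called 68 and, without a filter on low counts, 153, of which 1 was an F-box or KLHL gene each time, Klhl11, which met the detection rule through knockout libraries alone; the cause was not tested. Dcaf8 had a log2 fold change of -2.32 with a DESeq2 adjusted p of 2.13e-09 and, without a filter, -2.32 with 1.98e-09. The median log2 fold change of the F-box and KLHL genes stayed between 0.06 (strict filter) and 0.23 (limma-voom), and between 0.07 and 0.21 with each library left out. The detection rule kept 72 to 74 genes with each library left out, 74 at 30 counts and 57 when all 6 libraries had to reach 10. The labels state no pairing. Deviations of same-numbered libraries from their group means had correlations of 0.06, -0.04 and 0.01. With 3 libraries per genotype such correlations cannot exclude a shared origin or batch of same-numbered libraries. With the replicate number as a block, edgeR called 0 genes, 807 had an unadjusted p under 0.05, and the median of the F-box and KLHL genes was 0.10. Of 460 values of 33 named genes under alternatives, 27 changed sign, in 12 genes, and the cause was not tested. Under limma-voom Fbxl18 was at -0.074, Fbxw11 at 0.017, Fbxl5 at -0.061, Klhl20 at -0.10, Fbxl17 at 1.29 and Fbxo16 at 0.89, and with the block Fbxo5 was at 0.037. With each library left out, the log2 fold change ran from -0.073 to 0.17 for Klhl6, -0.45 to 0.084 for Fbxw11, -0.10 to 0.25 for Fbxl5, -0.40 to 0.26 for Fbxo5, -0.012 to 0.42 for Fbxo31, -0.25 to 0.85 for Klhl20, -0.40 to 0.49 for Klhl21, -0.14 to 0.55 for Klhl22, -0.13 to 2.11 for Fbxw10, -1.47 to 0.47 for Fbxl17 and -1.95 to 0.44 for Fbxo16.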
